A study of Mus musculus with 9 samples.

Results

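Small nucleolar RNA (snoRNA) host genes were followed by RNA sequencing in mouse embryonic stem cells after induced deletion of Zbtb11, which encodes a zinc finger and BTB domain protein. The 10 genes considered were Gas5, Snhg1, Snhg3, Snhg4, Snhg5, Snhg6, Snhg8, Snhg12, Snhg15 and Snhg17, chosen by name and matched by symbol to the Ensembl identifiers of the count tables. Of these, 5 matched a row (Gas5, Snhg3, Snhg12, Snhg15 and Snhg17), and all 5 passed the filter on low counts, among 37310 gene rows of which 16224 were tested. Snhg1, Snhg4, Snhg5, Snhg6 and Snhg8 had no match and their levels were not analysed here. In the files the measured genes are ENSMUSG00000053332.7 (Gas5), ENSMUSG00000085241.1 (Snhg3), ENSMUSG00000086290.1 (Snhg12), ENSMUSG00000085156.1 (Snhg15) and ENSMUSG00000085385.1 (Snhg17).

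The study had 9 libraries in 3 groups of 3, all from E14-derived cells grown without feeders in serum and LIF and collected after 72 hours of treatment. The EtOH control was a Zbtb11 lox/lox line with ERt2-Cre, a tamoxifen-activated recombinase, at the Rosa26 locus, given the ethanol carrier. The Zbtb11 KO group was that floxed line given 250 nM 4-hydroxytamoxifen (4OHT), and the 4OHT control was a line wild type at Zbtb11 and at Rosa26 given the same dose. The 4OHT control thus differed from the EtOH control in agent, in Zbtb11 alleles and in the presence of Cre, which cannot be told apart in that comparison. Nothing in the labels says that replicates were separate cultures, and the p-values then describe only how far these libraries spread, possibly for technical reasons.

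A snoRNA host gene carries snoRNAs inside its introns, and the snoRNAs are released from the spliced-out introns and trimmed. Box C/D snoRNAs guide ribose methylation and box H/ACA snoRNAs guide pseudouridylation, mostly of ribosomal RNA. The spliced host RNA is often without a conserved protein, commonly starts with a pyrimidine-rich run that ties it to translation control, and in many cases is degraded by nonsense-mediated decay when ribosomes read it. Gas5 was named as a growth arrest-specific transcript and accumulates in cells that stop growing or stop translating.

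The snoRNA sequences below show what the 5 measured hosts carry. They were read 5′ to 3′ from the GENCODE M21 transcripts (GRCm38), where annotated snoRNAs inside Gas5 numbered 10, those in Snhg12 5, those in Snhg17 3, those in Snhg3 2 and those in Snhg15 1. In box C/D snoRNAs the capitals mark box C (a purine followed by TGATGA) and box D (CTGA). In box H/ACA snoRNAs they mark the H box (ANANNA, where a single match was found) and the ACA box. Snord47 and Snord80 come from Gas5, Snord99 and Snora16a from Snhg12, Snora9 from Snhg15, Gm24411 from Snhg17 and Snora73a from Snhg3.
Snord47: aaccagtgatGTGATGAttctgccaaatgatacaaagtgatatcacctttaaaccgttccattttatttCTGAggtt
Snord80: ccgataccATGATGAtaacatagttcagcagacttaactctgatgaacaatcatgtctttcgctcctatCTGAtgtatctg
Snord99: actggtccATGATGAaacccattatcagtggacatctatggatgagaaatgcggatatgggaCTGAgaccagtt
Snora16a: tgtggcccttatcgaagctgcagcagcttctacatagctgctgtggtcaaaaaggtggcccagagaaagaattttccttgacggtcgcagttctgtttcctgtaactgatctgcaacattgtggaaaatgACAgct
Snora9: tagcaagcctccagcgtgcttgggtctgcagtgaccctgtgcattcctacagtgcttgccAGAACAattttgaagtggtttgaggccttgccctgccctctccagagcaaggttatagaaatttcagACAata
Gm24411: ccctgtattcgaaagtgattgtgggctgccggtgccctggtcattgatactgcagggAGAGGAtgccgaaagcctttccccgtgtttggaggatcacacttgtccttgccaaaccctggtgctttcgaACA
Snora73a: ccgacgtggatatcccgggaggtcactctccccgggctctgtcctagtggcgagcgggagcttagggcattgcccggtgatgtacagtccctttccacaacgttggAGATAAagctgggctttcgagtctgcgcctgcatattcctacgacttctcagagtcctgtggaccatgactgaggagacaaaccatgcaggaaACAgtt

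By these boxes the hosts differed in kind. Gas5 carried 8 snoRNAs with both C/D boxes and 2 in which they were not found. Snhg3, Snhg15 and Snhg17 carried H/ACA snoRNAs, and Snhg12 carried 1 of C/D and 4 of H/ACA type. Gas5 and Snhg12 each count 1 snoRNA under 2 nearly identical entries, Snord80 and Snora16a. Snora73a and its partner Snora73b in Snhg3 are 205 nt each and differ at 7 positions (96.6% identity).

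Promoters of the 5 measured hosts are shown because 4 of them differed between groups in at least 1 comparison. They are RefSeq windows (GRCm38.p6) from 250 bases before to 50 bases after the annotated start, read 5′ to 3′ on the gene's strand, with the transcribed bases in capitals. For Gas5, which has 2 listed starts, the second is shown, and for Snhg17 the first of 2.
Gas5 (chr1:161034916-161035215, plus strand): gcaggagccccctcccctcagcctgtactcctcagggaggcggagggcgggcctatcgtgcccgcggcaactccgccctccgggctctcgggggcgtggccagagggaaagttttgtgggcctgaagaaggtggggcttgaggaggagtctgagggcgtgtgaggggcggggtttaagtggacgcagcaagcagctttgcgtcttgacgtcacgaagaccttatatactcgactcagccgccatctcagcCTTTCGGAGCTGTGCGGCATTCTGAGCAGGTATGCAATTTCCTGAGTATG
Snhg15 (chr11:6528711-6529010, minus strand): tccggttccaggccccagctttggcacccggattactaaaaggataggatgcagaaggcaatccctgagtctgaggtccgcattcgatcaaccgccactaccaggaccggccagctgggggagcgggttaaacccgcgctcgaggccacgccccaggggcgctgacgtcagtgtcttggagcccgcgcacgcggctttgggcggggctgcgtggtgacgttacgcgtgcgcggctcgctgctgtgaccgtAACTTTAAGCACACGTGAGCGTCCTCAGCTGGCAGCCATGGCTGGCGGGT
Snhg17 (chr2:158361473-158361772, minus strand): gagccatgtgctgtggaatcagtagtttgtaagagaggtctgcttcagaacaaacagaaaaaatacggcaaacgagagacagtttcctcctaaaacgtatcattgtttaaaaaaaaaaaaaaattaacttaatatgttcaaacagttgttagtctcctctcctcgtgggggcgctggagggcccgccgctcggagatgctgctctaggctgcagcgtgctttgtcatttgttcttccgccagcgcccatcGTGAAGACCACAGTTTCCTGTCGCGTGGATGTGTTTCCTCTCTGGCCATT
Snhg12 (chr4:132308428-132308727, plus strand): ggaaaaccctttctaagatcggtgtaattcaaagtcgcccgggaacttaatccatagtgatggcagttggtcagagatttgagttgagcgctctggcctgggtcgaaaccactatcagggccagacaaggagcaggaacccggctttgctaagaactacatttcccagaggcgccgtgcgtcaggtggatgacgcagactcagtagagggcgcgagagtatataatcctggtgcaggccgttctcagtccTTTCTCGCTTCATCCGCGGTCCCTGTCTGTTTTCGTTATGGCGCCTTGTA
Snhg3 (chr4:132353637-132353936, minus strand): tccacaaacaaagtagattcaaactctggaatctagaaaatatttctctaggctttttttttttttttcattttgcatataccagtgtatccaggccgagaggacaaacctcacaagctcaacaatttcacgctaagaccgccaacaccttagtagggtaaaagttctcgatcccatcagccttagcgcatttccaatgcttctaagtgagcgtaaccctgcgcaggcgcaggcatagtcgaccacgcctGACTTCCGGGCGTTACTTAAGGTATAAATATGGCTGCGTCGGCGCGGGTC

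A terminal oligopyrimidine run (C followed by at least 4 pyrimidines, starting within 5 bases of the annotated start) was found in Gas5 (6 bases from position -1), Snhg12 (8 bases from -2) and Snhg3 (5 bases from 3). In Gas5 it was found at the second start and not at the first. Over the table it was found in 18.3% of all 32851 promoters, and at any start in 5718 of 27025 genes. No such run was found at the windows of Snhg15 and Snhg17. Among 8 listed hosts with a window, Snhg8 was the only other one with the run. CACGTG was found in Snhg15 (7.15% of all promoters) and CCGGAAG in Snhg3 on the minus strand (8.86%). The CCGGAAG match in Snhg3 also starts at position 3 and contains the pyrimidine run, so the 2 are not separate elements. TATAAA occurred in 4 of the 8 hosts, in Snhg3 at position 23, Snhg5 at -23, Snhg8 at -30 and Snhg1 at -29 on the minus strand (13.6% of all promoters). TCGCGAGA (0.995% of all promoters) and GCGCATGC (2.71%) were found in none of the 8 hosts, and all motifs were searched on both strands.

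The libraries held 16909139 to 23544893 counts in genes. Levels are given as CPM, the count in a gene scaled to a common library size, with library sizes adjusted by the trimmed mean of M values (TMM). Zbtb11 itself was at 347.4, 358.5 and 359.5 CPM in the EtOH controls, 368.9, 385.7 and 375.5 CPM in the libraries labelled KO, and 363.4, 378 and 360.6 CPM in the 4OHT controls. The log2 fold change of Zbtb11 over the EtOH control was 0.086 (adjusted p = 0.17, and 0.032 with the replicate block). No source used here names the exons flanked by loxP, and this sum over the gene checks nothing about the deletion. All 10 embryonic stem cell markers were at 1 CPM or more in each group, with summed levels of 4410 to 4630, 4210 to 4520 and 4530 to 5150 CPM in the EtOH control, KO and 4OHT control. Of these, 2 were called lower for KO over EtOH control and 4 for KO over 4OHT control, with none higher. For 4OHT over EtOH control 3 were called higher and 1 lower. The 5 endoderm markers summed to 3.5 to 5.69 CPM in EtOH controls, 7.75 to 9.63 CPM in the libraries labelled KO and 3.7 to 4.9 CPM in 4OHT controls, and none was at 0 throughout. Feeder fibroblast markers summed to 14 to 18.8 CPM, trophoblast markers to 11 to 21.3 CPM, mesoderm markers to 5.62 to 11.2 CPM and neurectoderm markers to 44 to 70.4 CPM over all libraries. For KO over 4OHT control, 2 of 3 feeder fibroblast markers tested were called higher and 1 lower, and 2 of 5 trophoblast markers were called higher. For 4OHT over EtOH control, 1 of the 3 feeder fibroblast markers was called higher and 2 lower. All 3 endoderm markers tested were called higher for KO over either control. Of these, Sox17 met the low-count filter only through the libraries labelled KO, so its calls partly follow from the filter. It had 13 to 19 counts there, against 6 to 8 in EtOH controls and 3 to 8 in 4OHT controls. Of 4 mesoderm markers, 1 was called higher for KO over 4OHT control. Of 2 neurectoderm markers tested, 1 was called lower for KO over 4OHT control and 1 higher for 4OHT over EtOH control. Over all genes tested, 13% were called higher and 14.2% lower for KO over EtOH control. The shares were 19.1% and 19.8% for KO over 4OHT control, and 9.66% and 8.75% for 4OHT over EtOH control. Reads that fell in no gene were 32.7 to 33.8% in the libraries labelled KO and 26.4 to 28.7% in the EtOH controls, against 26.7 to 27.5% in the 4OHT controls. The part of these shares and markers in the host gene results was not tested.

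Deletion of Zbtb11 was first compared with the carrier in the same floxed line. Gas5, Snhg15 and Snhg17 rose 1.66-fold, 1.55-fold and 1.5-fold in the libraries labelled KO, while Snhg12 and Snhg3 did not pass the test. Calls rest on edgeR's quasi-likelihood test, with p adjusted after Benjamini and Hochberg over all genes tested and a limit of 0.05. On that rule 3 of the 5 measured hosts were called higher and none lower, since all 5 log2 fold changes were above 0, where 13% of all genes tested were called higher and 14.2% lower. The median log2 fold change was 0.586 over the 5 hosts and 0.0143 over all genes tested. In bulk libraries, a change in the RNA per cell and a change in the kinds of cells present cannot be told apart.

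Gas5, the most abundant of the hosts, stood at 160.1, 160 and 150.4 CPM in the 3 EtOH controls and at 261.2, 256.8 and 262.3 CPM in the libraries labelled KO. In the 4OHT controls it was at 153.1, 180.1 and 178.5 CPM. All libraries labelled KO lay above all 6 controls, and the 2 sets of controls overlapped. The log2 fold change over the EtOH control was 0.73 (SE 0.061, 95% interval 0.60 to 0.86, adjusted p = 2.5e-07). Of all genes tested, 6.4% rose by a larger factor.

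Snhg15, the host of Snora9, was measured at 41.64, 35.2 and 39.8 CPM in EtOH controls, 66.84, 57.1 and 56.57 CPM in the libraries labelled KO and 36.71, 39.54 and 36.26 CPM in 4OHT controls. Its lowest value in a library labelled KO was above its highest control value, and the control groups overlapped. The rise over the EtOH control was 0.63 on the log2 scale (SE 0.079, 95% interval 0.47 to 0.80, adjusted p = 2.7e-05). A larger rise was seen in 8.12% of genes tested.

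Snhg17, which carries 3 H/ACA snoRNAs, had 51.7, 50.38 and 54.8 CPM in EtOH controls, 84.37, 73.25 and 77.53 CPM in the libraries labelled KO and 54.21, 58.34 and 52.64 CPM in 4OHT controls. Again the libraries labelled KO stood above all controls without overlap. Its log2 fold change over the EtOH control was 0.59 (SE 0.065, 95% interval 0.45 to 0.72, adjusted p = 7.7e-06), and 9.24% of genes tested rose by more. The 95% intervals of Gas5, Snhg15 and Snhg17 overlapped one another, and differences between their folds were not tested.

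Snhg12 had 37.55, 40.01 and 41.89 CPM in EtOH controls and 43.33, 46.11 and 45.24 CPM in the libraries labelled KO. The 2 groups did not overlap, but the difference did not pass the threshold (log2 fold change 0.17, SE 0.081, 95% interval 0.0021 to 0.35, adjusted p = 0.12). With the replicate number as a block the adjusted p was 0.012, and 4 of the 5 hosts were then called higher. With library totals in place of TMM the log2 fold change of Snhg12 was 0.25, with an adjusted p of 0.03. Counting Snhg12, 4 of the 5 hosts had libraries labelled KO above the EtOH controls without overlap, against 21.3% of all genes tested.

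Snhg3, the host of Snora73a and Snora73b, was the least abundant of the 5 in CPM, at 10.6, 11.63 and 11.77 in EtOH controls and 12.56, 11.67 and 12.27 in the libraries labelled KO. These values overlapped, as did the 4OHT controls at 10.81, 13.16 and 11.82 CPM. The log2 fold change of 0.10 over the EtOH control had a 95% interval of -0.11 to 0.32 and an adjusted p of 0.47. A rise as large as that of Gas5, Snhg15 or Snhg17 lay outside this interval, while a smaller change in either direction lay inside it.

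**Figure D1:**
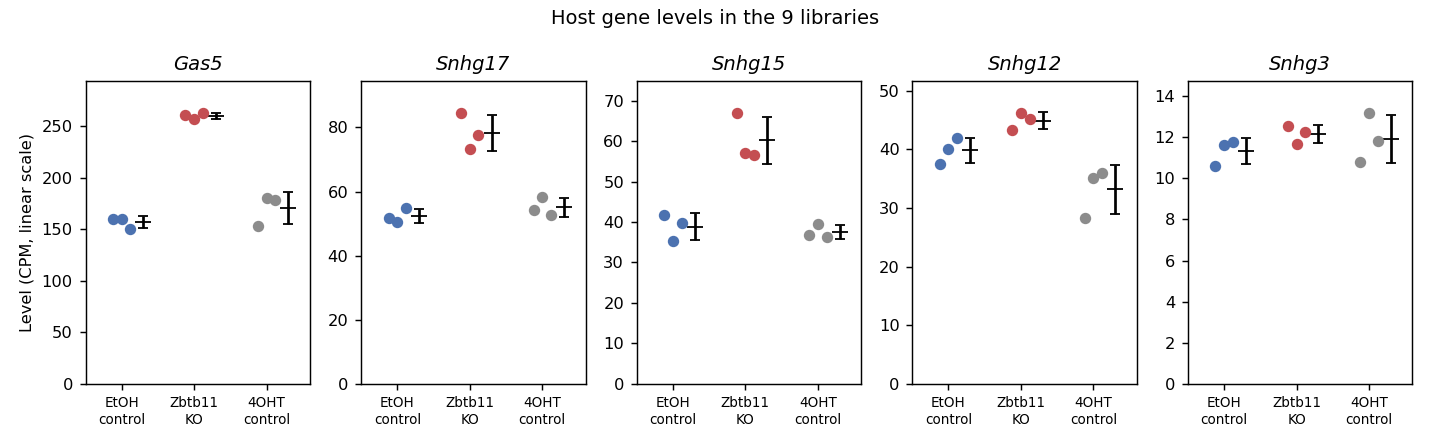
Each panel plots 1 host gene, with its level in CPM on a linear axis from 0 and a point for each of 3 libraries in the EtOH control, Zbtb11 KO and 4OHT control groups. Black marks are group means with SD, and the libraries labelled KO lie above all controls for Gas5, Snhg17, Snhg15 and Snhg12 and among them for Snhg3.

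Added together, the 5 hosts made up 299.1 ± 2.25 CPM (SD, n = 3) in the EtOH controls, 455.7 ± 11.8 CPM (SD, n = 3) in the libraries labelled KO and 308.2 ± 22.4 CPM (SD, n = 3) in the 4OHT controls. Gas5 made up the greater part of each sum. Counts behind these values ran from 2516 to 6156 per library for Gas5, and from 197 to 296 for Snhg3. Snhg12, Snhg15 and Snhg17 had 598 to 1021, 666 to 1575 and 917 to 1988 counts.

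Levels of different hosts were compared per kilobase of merged exon in the EtOH controls. The lengths came from GENCODE M21 and may differ from the gene models used for counting, which are not given. Gas5 was highest at 41.7 ± 1.49 CPM per kb, followed by Snhg15 at 28.6 ± 2.44, Snhg12 at 16.6 ± 0.908, Snhg3 at 11.5 ± 0.647 and Snhg17 at 7.42 ± 0.322 (SD, n = 3). Each neighbouring pair in this order was separated by more than its spread. The order depends on the length used, since per kilobase of median transcript Snhg17 stood at 50 CPM, between Snhg15 at 65.1 and Snhg12 at 43.5. Gas5 led on that length too, at 249 CPM per kb, and Snhg3 was lowest at 25.9.

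The libraries labelled KO were next set against the 4OHT control, which shares the agent but not the line. The lines differed in Zbtb11 alleles and in the presence of Cre, which cannot be told apart here either. Gas5, Snhg15, Snhg17 and Snhg12 rose, and Snhg3 did not pass the test. Thus 4 of the 5 hosts were called higher, where 19.1% of all genes tested were called higher. All 5 log2 fold changes were above 0 here too, where 19.8% of all genes tested were called lower. The median log2 fold change was 0.511 over the hosts and 0.0207 over all genes tested. The KO libraries are the same as in the comparison with EtOH, so both comparisons share them.

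Gas5 rose by 0.61 on the log2 scale over the 4OHT control (SE 0.06, 95% interval 0.48 to 0.74, adjusted p = 1.1e-06), a 1.53-fold difference. For Snhg15 the log2 fold change was 0.69 (SE 0.079, 95% interval 0.52 to 0.85, adjusted p = 5.9e-06). Snhg17 was higher by 0.51 (SE 0.065, 95% interval 0.37 to 0.65, adjusted p = 1.6e-05). These 3 hosts therefore passed the test against either control.

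Snhg12 rose 1.36-fold over the 4OHT control (log2 fold change 0.44, SE 0.082, 95% interval 0.27 to 0.61, adjusted p = 0.00056). Its 4OHT control values were 28.36, 35.13 and 35.93 CPM, all below the EtOH controls and the libraries labelled KO. For Snhg3 the log2 fold change was 0.033 with a 95% interval of -0.18 to 0.25 (adjusted p = 0.82). In this comparison 4 of 5 hosts did not overlap between groups and were higher in the libraries labelled KO, against 24.5% of all genes tested.

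The control comparison, 4OHT control over EtOH control, called 1 of the 5 hosts, Snhg12, which was lower. Of all genes tested, 8.75% were called lower and 9.66% higher. The log2 fold change of Snhg12 was -0.27 (SE 0.083, 95% interval -0.44 to -0.089, adjusted p = 0.036), and its groups did not overlap, as for 17% of all genes tested that were lower. This call was lost without 4OHT control replicate 1, the library with the lowest value (log2 fold change -0.17, adjusted p = 0.15). It was also lost without EtOH control replicate 2 (adjusted p = 0.099) or replicate 3 (adjusted p = 0.12).

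Gas5 gave 0.12 on the log2 scale between the controls (95% interval -0.0087 to 0.25, adjusted p = 0.19). Without 4OHT control replicate 1 this became 0.19 with an adjusted p of 0.03. The intervals of the remaining hosts were -0.22 to 0.12 for Snhg15, -0.066 to 0.22 for Snhg17 and -0.14 to 0.29 for Snhg3, with adjusted p of 0.71, 0.49 and 0.69. The median over the 5 hosts was 0.0715, against 0.00339 over all genes tested.

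**Figure D2:**
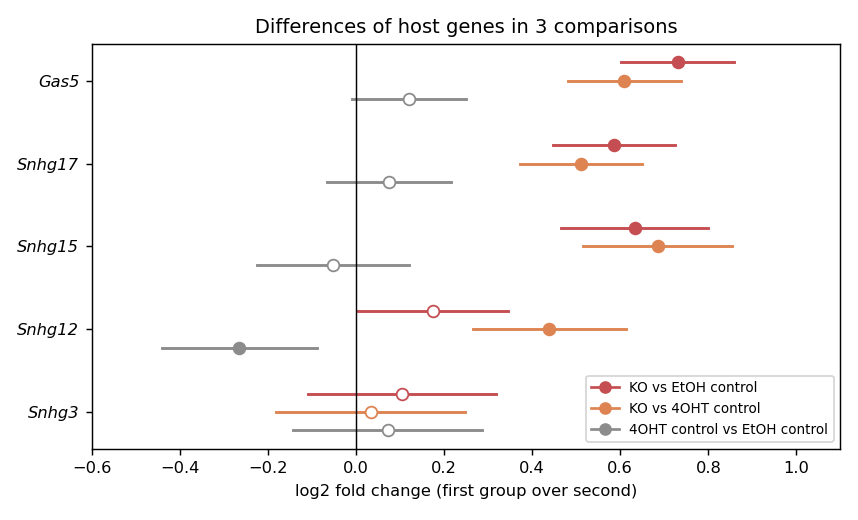
The log2 fold change (horizontal axis) of each host gene is drawn with its 95% interval for 3 comparisons, with filled points for an adjusted p under 0.05. Gas5, Snhg17 and Snhg15 are filled in both comparisons of the libraries labelled KO (0.51 to 0.73), Snhg12 only against the 4OHT control and, downward, between the controls, and Snhg3 in none.

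The snoRNAs shown above were looked up as genes of their own. Of 19 snoRNA rows inside the 5 measured hosts, 16 had a count of 0 in all 9 libraries, among them all 9 rows of Gas5, including Snord47 and Snord80. A count of 0 allows up to 0.127 to 0.179 CPM in a library (3 counts, for counting error only). Whether snoRNA reads were counted to the host, set aside as ambiguous (0.78 to 0.908% of reads) or lost with short fragments was not tested.

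The remaining 3 rows carried counts. Gm24411 in Snhg17 was at 2.731, 2.274 and 3.825 CPM in EtOH controls, 3.692, 3.599 and 3.588 CPM in the libraries labelled KO and 2.513, 2.174 and 2.449 CPM in 4OHT controls. It was called higher in the libraries labelled KO against the 4OHT control (log2 fold change 0.60, adjusted p = 0.021) and not against the EtOH control (0.33, 95% interval -0.073 to 0.72, adjusted p = 0.22). The first call was lost with DESeq2 (adjusted p = 0.052), without 4OHT control replicate 2 (0.068) and without KO replicate 1 (0.058).

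Snora16a in Snhg12 was at 1.175 to 1.768 CPM in all libraries and was not called against the EtOH control (log2 fold change 0.32, 95% interval -0.14 to 0.78, adjusted p = 0.29). Snora73a in Snhg3, a snoRNA that acts in cleavage of the ribosomal RNA precursor, spread widely within groups. It was at 18.93, 9.971 and 14.4 CPM in EtOH controls, 14.09, 12.5 and 9.36 CPM in the libraries labelled KO and 17.4, 13.34 and 6.676 CPM in 4OHT controls. These groups overlapped, and the 95% interval of its log2 fold change over the EtOH control, -1.17 to 0.64, covers a change of the size seen in Gas5 only downward. The snoRNAs Snord87 and Snora24, which lie in the unmatched hosts Snhg6 and Snhg8, were at 2.043 to 2.971 CPM and 1.873 to 3.645 CPM. Their adjusted p against the EtOH control was 0.31 and 0.55.

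Genes that overlap or adjoin a host were examined next, since reads can be shared where gene models overlap. The library kit is directional, but no source used here gives the strand setting of the counting. Reads of a host and of its antisense partner may therefore not be separated. Of 10 named genes tested beside the 5 hosts, 1 was called higher (Zbtb37) and 1 lower (Rcc1) in the libraries labelled KO against the EtOH control. Over all genes tested, 13% were called higher and 14.2% lower in that comparison.

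Zbtb37, a zinc finger gene that overlaps Gas5 on the opposite strand, was at 13.79, 13.38 and 12.49 CPM in EtOH controls and 19.48, 16.34 and 17.06 CPM in the libraries labelled KO. In 4OHT controls it was at 10.67, 10.81 and 10.95 CPM. The libraries labelled KO were highest and the 4OHT controls lowest, with no overlap. Zbtb37 rose by 0.41 (adjusted p = 0.0037) against the EtOH control and by 0.71 (adjusted p = 2.6e-05) against the 4OHT control. Between the controls Zbtb37 was lower by -0.29 (adjusted p = 0.046), a call lost in 8 of 16 alternatives, where Gas5 gave 0.12.

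At Snhg15, the neighbours Myo1g and Ccm2 gave log2 fold changes of -0.077 (adjusted p = 0.53) and -0.0037 (adjusted p = 0.98) over the EtOH control. At Snhg17, the neighbour Snhg11 gave -0.073 (adjusted p = 0.51), and Lbp, at 0.407 CPM in EtOH controls, gave 0.48 (adjusted p = 0.36). None of these 4 was called in that comparison. Myo1g was lower than in the 4OHT control (-0.37, adjusted p = 0.0025), and it was higher in the 4OHT than in the EtOH control (0.29, adjusted p = 0.023), a call lost without 4OHT control replicate 2 or EtOH control replicate 2 or 3.

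Trnau1ap, which encodes a protein that binds the selenocysteine tRNA, lies between Snhg12 and Snhg3. It was at 31.72, 31.18 and 29.04 CPM in EtOH controls, 36.33, 35.41 and 31.15 CPM in the libraries labelled KO and 16.5, 17.86 and 16.09 CPM in 4OHT controls. The 4OHT controls were far below both groups of the floxed line. Its log2 fold change was 1.03 for KO over 4OHT control (adjusted p = 6.7e-08) and -0.87 for 4OHT over EtOH control (adjusted p = 2.1e-06). Against the EtOH control it was 0.16 (adjusted p = 0.13, and 0.027 with the replicate block). Snhg12 gave 0.44, -0.27 and 0.17 in these comparisons, and Snhg3 gave 0.033, 0.072 and 0.10.

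Snhg3 overlaps Rcc1, which encodes the nucleotide exchange factor of Ran, on the same strand and Gm17300 on the opposite strand. Rcc1, at 143.6, 160.5 and 161.5 CPM in EtOH controls and 124.4, 143.8 and 124 CPM in the libraries labelled KO, was called lower (-0.25, adjusted p = 0.023). The groups overlapped only between the lowest EtOH control and the highest library labelled KO. In 4OHT controls Rcc1 was at 122.6, 146.2 and 132.5 CPM, among the libraries labelled KO (log2 fold change of KO over 4OHT control -0.032, adjusted p = 0.76). Between the controls it gave -0.22 (adjusted p = 0.06, and 0.00011 with the replicate block). The call against the EtOH control was lost with library totals (adjusted p = 0.077) and without EtOH control replicate 2 or 3 or KO replicate 1 or 3. Gm17300 had 116.1 to 179 CPM in all libraries and gave 0.11 (adjusted p = 0.66), and Phactr4 gave -0.068 (adjusted p = 0.44). Both Rcc1 and Gm17300 were far above Snhg3 in CPM, and the part of the overlap in the level of Snhg3 was not tested.

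**Figure D3:**
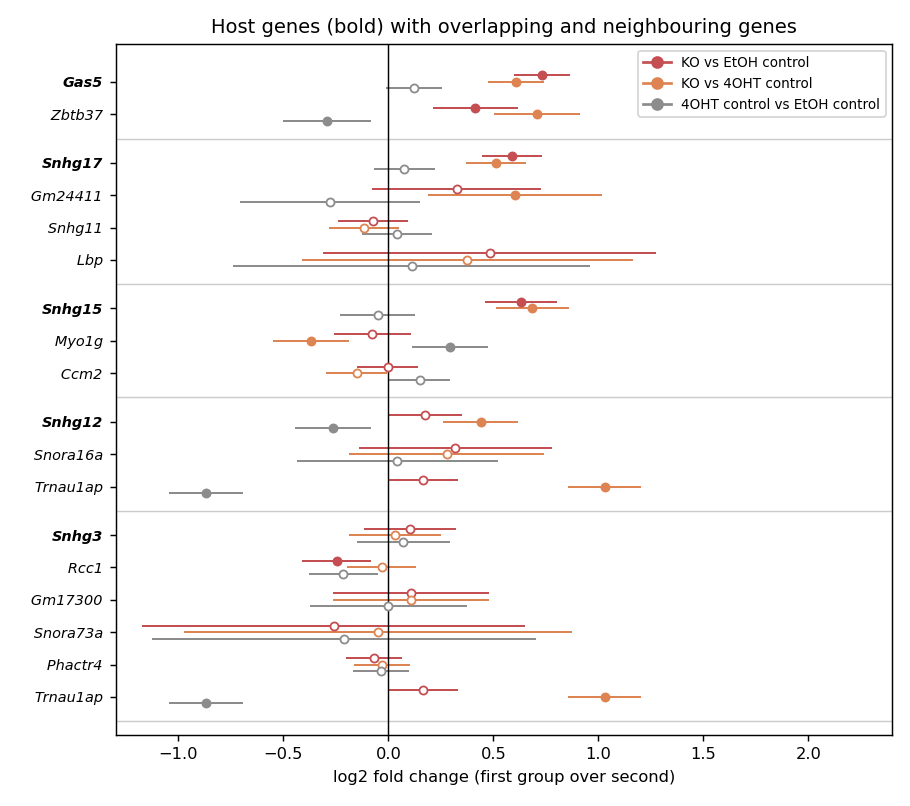
Host genes in bold are followed by overlapping genes, neighbours and snoRNAs, with the log2 fold change and 95% interval of 3 comparisons on the horizontal axis and filled points for an adjusted p under 0.05. Gas5, Snhg15 and Snhg17 lie to the right of 0 in both comparisons of the libraries labelled KO while most neighbours lie near 0, and Trnau1ap, drawn at both of its hosts, departs in the 2 comparisons that use the 4OHT control.

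Similar stretches elsewhere in the genome can also draw reads. The search covered annotated transcripts only, and genes that overlap a host, such as Rcc1 at Snhg3, were left out of it. It started from runs of exact matches, as blastn does by default, so similar stretches without such a run can be missed. At 90% identity over 100 bases or more, the exons of Gas5 and Snhg3 gave no match to the remaining genes in this search. Those of Snhg12 matched 3 other genes, those of Snhg15 68 (up to 180 bases) and those of Snhg17 170 (up to 207 bases). No source used here tells how reads with several matches were treated, so the values of Snhg15 and Snhg17 are less certain than that of Gas5 on this point.

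The 4 genes whose levels over the 9 libraries were most like those of Gas5, by root mean square difference of centred log2 CPM, were Zkscan1 (0.0507), Rabggtb (0.0723), Taf1d (0.0766) and Cpne1 (0.0832). The median of this measure over 10872 candidate genes was 0.369. Taf1d, for example, was at 136.8, 134.1 and 126.6 CPM in EtOH controls, 207.6, 206.2 and 195.6 CPM in the libraries labelled KO and 130.5, 139.1 and 132 CPM in 4OHT controls. As for Gas5, the libraries labelled KO lay above all controls. These genes were picked for likeness to Gas5 over the same libraries, so this pattern and their folds follow from the choice. The log2 fold changes over the EtOH control were 0.64 for Zkscan1, 0.62 for Rabggtb, 0.62 for Taf1d and 0.80 for Cpne1. The other 4 measured hosts were left out of the candidates, so likeness between hosts was not examined.

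Other snoRNA hosts and the proteins that work with snoRNAs were described by lists, for the libraries labelled KO against the EtOH control. In that comparison 13% of all genes tested were called higher and 14.2% lower, and against the 4OHT control 19.1% and 19.8%. Among other non-coding hosts, 5 of 10 matched a row and were tested, and 1 was called higher. This was Zfas1, the host antisense to Znfx1, at 41.92, 40.99 and 39.71 CPM in EtOH controls and 53.86, 52.94 and 56.72 CPM in the libraries labelled KO (log2 fold change 0.41, adjusted p = 0.00071). Zfas1 was also higher than in the 4OHT control (0.38, adjusted p = 8e-04). Snhg20 gave 0.32 (adjusted p = 0.13, and 0.013 with the replicate block, which made 2 calls in the list). The list's median was 0.0569, and against the 4OHT control, where 1 was called higher, -0.0334.

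Of 21 other coding hosts, 4 were called higher and 5 lower, with a median of -0.0204. The shares over all genes tested were 13% and 14.2%. Against the 4OHT control 5 were called higher and 5 lower, where the shares were 19.1% and 19.8%. Those called against the EtOH control were, upward, Taf1d, a subunit of a factor for ribosomal RNA transcription (0.62, adjusted p = 2.9e-07), Eif4a2, a translation initiation helicase (0.30, adjusted p = 0.0011), Ppan (0.25, adjusted p = 0.0068) and Tpt1 (0.17, adjusted p = 0.011). Downward, they included Cct6a, a chaperonin subunit (-0.43, adjusted p = 6e-05), and Hspa8, a chaperone (-0.17, adjusted p = 0.011). With library totals the split was 7 higher and 3 lower.

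Of 24 ribosomal protein genes that host snoRNAs, 10 were called higher and 1 lower, with a median of 0.118. The shares over all genes tested were 13% and 14.2%. Against the 4OHT control 7 were called higher and 2 lower, with a median of 0.0768, where the shares were 19.1% and 19.8%. Those called higher against the EtOH control included Rps2 (0.17, adjusted p = 0.0064), Rpsa (0.17, 0.0097), Rps13 (0.17, 0.011), Rpl12 (0.16, 0.012) and Rpl32 (0.15, 0.017). The median fold of this list was well below that of Gas5, Snhg15 and Snhg17. Its count moved with the processing, to 19 higher and 1 lower with replicate number as a block, 20 and 0 when scaled by library totals, and 5 and 0 with no low-count filter. Leaving out 1 library gave 4 to 9 calls, with 4 without EtOH control replicate 2, KO replicate 1 or KO replicate 2, and 6 without EtOH control replicate 1 or 3.

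**Figure D4:**
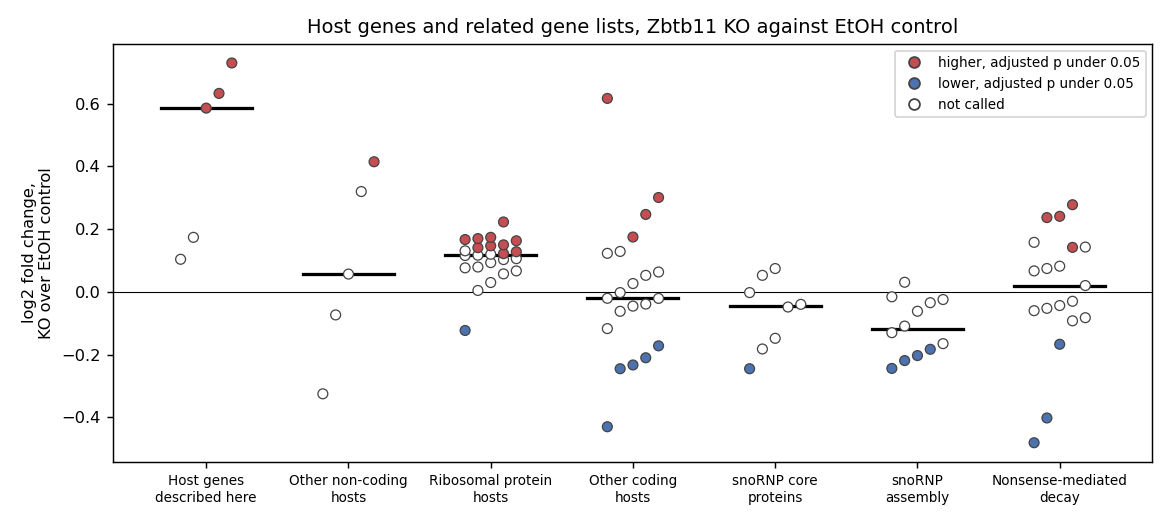
Each point is a gene's log2 fold change, KO over EtOH control (vertical axis), for the host genes described here and 6 related lists, with bars at medians and colour for genes called higher (red) or lower (blue). The hosts Gas5, Snhg15 and Snhg17 and the coding host Taf1d lie above 0.5, where the median of the ribosomal protein hosts is 0.118.

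Of 8 core proteins of snoRNA particles, 1 was called against the EtOH control, where 14.2% of all genes tested were called lower. It was Dkc1, the pseudouridine synthase of H/ACA particles and itself a snoRNA host (-0.25, adjusted p = 0.013). The list's median was -0.0439. Against the 4OHT control 3 were called higher and 1 lower, with a median of -0.0607. The shares over all genes tested were 19.1% and 19.8% there. With the replicate block, against the EtOH control, 3 were called, all lower, and with no low-count filter 2. The call of Dkc1 was lost without EtOH control replicate 2 or KO replicate 1, and without KO replicate 2 the list had 3 calls.

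Of 12 assembly factors of these particles, 4 were called lower against the EtOH control, where 14.2% of all genes tested were called lower. The list's median was -0.119. Against the 4OHT control 2 were called higher and 2 lower, with a median of -0.0315, where the shares over all genes were 19.1% and 19.8%. For 4OHT over EtOH control the median was -0.087. The 4 called against the EtOH control were Nolc1 (-0.24, adjusted p = 0.0093), Tgs1, which modifies RNA caps (-0.22, 0.012), Nufip1 (-0.20, 0.03) and the ATPase Ruvbl1 (-0.18, 0.033). With library totals 1 remained called lower, without EtOH control replicate 2 none, and without EtOH control replicate 3, KO replicate 1 or KO replicate 3 the count was 2.

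Of 19 genes of nonsense-mediated decay, 4 were called higher and 3 lower, with a median of 0.0203. The shares over all genes tested were 13% and 14.2%. Against the 4OHT control 3 were called higher and 5 lower, where the shares were 19.1% and 19.8%. Those called against the EtOH control included Smg8, a regulator of the kinase Smg1 (-0.48, adjusted p = 3.3e-05), Dcp2, the decapping enzyme (-0.40, 5e-05), Smg6, the endonuclease (0.24, 0.0019), Upf3a (0.24, 0.026) and Gspt1 (-0.17, 0.033). The calls of Upf3a and Gspt1 were lost in some alternatives, and the count of calls was 3 without EtOH control replicate 3 and 4 without KO replicate 1. Between the controls, 4OHT over EtOH, 5 of the 19 were called higher and 3 lower, where the shares over all genes were 9.66% and 8.75%. Without EtOH control replicate 3 these became 4 and 1. The part of these genes in the levels of Gas5, Snhg15 and Snhg17 was not tested.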

How the data were processed

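RNA was sequenced from 9 libraries of mouse embryonic stem cells, after ribosomal RNA depletion and with a directional kit, per the labels' protocols. The deposited files hold raw counts per Ensembl gene identifier and closing lines for reads in no gene or in several. The submitters' processing notes name cutadapt, Bowtie 1.1.2, MACS2, DiffBind, STAR, HTSeq and edgeR and the genome build mm9, without saying which step used which, and the annotation and strand setting are not given in the sources used here. Closing lines were left out of library sizes (no-feature reads were 26.4 to 33.8% per library). Library totals ran from 16909139 to 23544893.

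Counts were tested with edgeR 4.0.16 (R 4.3.3) on TMM library sizes, filterByExpr by group and a robust quasi-likelihood fit in which the 9 libraries had 3 group means (6 residual degrees of freedom), with Benjamini-Hochberg adjustment over 16224 genes at 0.05. SE was the log2 fold change over the square root of F, and intervals are 95%. Alternatives were RLE size factors, library totals, no filter, a filter of 1 CPM in 3 libraries, DESeq2 1.42.0, a replicate block, only the 2 groups compared, and each library left out. Replicate numbers come from the labels: deviations of same-numbered libraries from their group means correlated in all 9 pairs (r 0.109 to 0.311). The main fit and its p-values leave this pairing out, and the replicate block is the alternative that uses it. No pair of replicates agreed within sampling noise (chi-square per gene 4.98 to 16.7). The highest values were those of KO replicate 3, at 15.6 with KO replicate 1 and 16.7 with KO replicate 2. All remaining pairs were at 4.98 to 7.55. The fit was tested on simulated data.

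Symbols came from a gene name table, which named 32620 of 37310 rows. Rows without a symbol held 3.92% of counts and stayed in the fit. Host structure, overlaps and snoRNAs came from GENCODE M21 (GRCm38), while the counts are on mm9. It was used for names, sequences, neighbours and the lengths behind levels per kilobase. Copies were searched with blastn 2.17.0. Genes named beside the hosts were called genes of each list, up to 6 in order of p, overlapping genes, nearest neighbours, the 4 genes most like Gas5 and Zbtb11. Some genes under this rule are not reported here. The genes and lists were chosen with earlier results of these data known.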

Additional observations from a re-analysis of the deposited data

How the results depend on the processing

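The 3 hosts called against the EtOH control and the 4 called against the 4OHT control were called upward in all 16 alternatives, and the number of hosts called was 3 or 4 against the EtOH control and 4 against the 4OHT control. Without 1 library the count of hosts called between the controls was 0 to 1, being 0 without EtOH control replicate 2 or 3, and without 4OHT control replicate 1 the call was Gas5 upward. The direction of Snhg3, which was never called, turned in KO over 4OHT control without 4OHT control replicate 1 (log2 fold change -0.0357, range -0.0357 to 0.103 over the libraries left out) and in 4OHT over EtOH control without 4OHT control replicate 2 (-0.00355, range -0.00355 to 0.135). The cause was not tested.

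With the replicate block, 6936 genes were called for KO over EtOH control (4417 without the block) and 5323 for 4OHT over EtOH control (2987 without the block). Beside Snhg12, the block changed no call of a host. Leaving out 1 library gave 3067 to 4559 genes called for KO over EtOH control, 5011 to 6268 for KO over 4OHT control and 1974 to 3069 for 4OHT over EtOH control, the lowest of these without EtOH control replicate 2.

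Library totals moved the median of all genes to 0.0852 for KO over EtOH control and 0.104 for KO over 4OHT control. Calls for KO over EtOH control were then 3038 higher and 1527 lower (2110 and 2307 with TMM), and for KO over 4OHT control 4215 and 2328 (3103 and 3216). In fits of single hosts, 129 values without 1 library and 103 under other alternatives kept direction and call, and 6 and 2 did not. A count of 0 in a snoRNA row limits what is counted to that row only to 0.127 to 0.179 CPM. It limits the snoRNA itself only if its reads would be counted there, which was not tested.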
